A study of Homo sapiens with 3 samples.

Results

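Interferon-stimulated genes were followed as a list of 39 named genes in RNA-sequencing libraries of A549 cells, a human lung adenocarcinoma line. The genes were chosen by name, as well-known targets of interferon signalling, but with earlier results of these data known. All 39 were found among the 58735 genes of the deposited count tables. The 3 conditions were sequenced with 1 library each. The control library is called Control-sh, and the libraries of cells carrying 1 or the other short hairpin RNA (shRNA) against the RNA helicase gene DDX24 are called DDX24-sh1 and DDX24-sh2. All cells were grown in F12K medium with fetal bovine serum. Per the study's methods they were made by lentiviral infection with pLKO.1 vectors and puromycin selection, so the control cells had been infected and selected too. The labels name no treatment with interferon. The methods name an empty vector as the control, whereas a description of the protein blots names a control shRNA. Which of these the control library carried is not known here.

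With 1 library per condition no test between conditions could be made and no p-value is given. A ratio is the log2 ratio of CPM (counts per 1000000 counts) after TMM scaling, with a prior count of 2, and the range after it is the exact 95% interval that the counts of the compared libraries allow. Such an interval covers counting error only. How far separate cultures differ is not in it, and PCR copies of 1 molecule were not told apart because the reads hold no molecular identifiers. Both ratios to Control-sh share the control library, so that agreement in sign between them is not independent. In bulk RNA, fewer cells with a transcript and less of the transcript per cell cannot be told apart.

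Interferons are secreted proteins that cells release when they sense viral nucleic acid. Type I and type III interferons bind paired receptors, whose JAK kinases phosphorylate STAT proteins, among them STAT2, which join IRF9 into the complex ISGF3, which binds the interferon-stimulated response element (ISRE) in promoters. The genes so induced encode the sensors and effectors that block translation, degrade RNA, modify proteins and trap virus particles, and many of them also keep a basal level in epithelial cells without added interferon.

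The promoters of the list held the core sequence of the ISRE more often than those of all genes, but not in every member. The table of RefSeq promoters (GRCh38.p14) held 32 of the 39 members. The 250 bases before each start were searched on both strands for the ISRE core GAAANNGAAA, which reads TTTCNNTTTC on the other strand, and for the core of the gamma-activated site TTCNNNGAA, which is its own reverse complement. Matches of the cores can overlap each other. The ISRE core stood in 19 of 32 members (59.4%), against 3.71% of 27305 genes with a RefSeq promoter, and in 13 of the 24 members that also averaged 1 CPM or more (54.2%), against 3.14% of 10206 genes at that level. The gamma-activated site core stood in 9 of 32 members (28.1%), against 8.09% of those genes. A match is a description of letters and not a binding site. The stretches below, with the cores in capitals and 20 bases on each side, show how the cores stand singly, in overlap or in tandem, and they include genes whose counting interval lay above the control in both DDX24 libraries (IFIT1, IFIT3, SAMD9) beside genes for which it did not (ISG15, HERC5, OAS3, IFI6). Each is written 5′ to 3′ along the gene, and positions are from the RefSeq start. For HERC5, IFIT1 and IFIT3 the capitals show the other strand of the core.
SAMD9: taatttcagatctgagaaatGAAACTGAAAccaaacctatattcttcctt
IFIT1: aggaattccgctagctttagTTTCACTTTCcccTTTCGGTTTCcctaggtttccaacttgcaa
IFIT3: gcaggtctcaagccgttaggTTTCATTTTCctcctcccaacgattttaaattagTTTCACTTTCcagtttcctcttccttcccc
ISG15: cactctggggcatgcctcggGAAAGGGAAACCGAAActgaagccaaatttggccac
HERC5: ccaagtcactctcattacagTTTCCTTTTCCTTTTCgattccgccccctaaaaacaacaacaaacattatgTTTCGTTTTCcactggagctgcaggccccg
OAS3: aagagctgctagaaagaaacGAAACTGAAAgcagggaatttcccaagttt
IFI6: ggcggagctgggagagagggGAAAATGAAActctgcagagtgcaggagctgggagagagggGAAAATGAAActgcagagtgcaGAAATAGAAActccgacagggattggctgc
The SAMD9 stretch is chr7:93118086-93118135 on the minus strand, from base -156 to base -107. The IFIT1 stretch is chr10:89392487-89392549 on the plus strand, from -136 to -74, and the IFIT3 stretch is chr10:89327821-89327904 on the plus strand, from -176 to -93. The ISG15 stretch is chr1:1013364-1013419 on the plus strand, from -133 to -78, and holds 2 overlapping cores. The HERC5 stretch is chr4:88456974-88457074 on the plus strand, from -145 to -45, with 3 cores. The OAS3 stretch is chr12:112938311-112938360 on the plus strand, from -163 to -114, and a further core of OAS3, from -12 to -3, is not shown. IFIT3 has 4 cores over 2 RefSeq starts, and those before its other start are not shown either. The IFI6 stretch is chr1:27672256-27672368 on the minus strand, from -176 to -64, with 3 cores. These 7 stretches lie upstream of the RefSeq starts, and in GENCODE 29, the annotation whose gene identifiers and positions the count tables match, between 0 and 11 of their bases fall in an exon.

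The targeted gene was lower in both libraries that carry a hairpin. DDX24 had 2010 counts in the control library, 637 with DDX24-sh1 and 765 with DDX24-sh2, a log2 ratio to Control-sh of -1.75 (-1.89 to -1.63) and -1.47 (-1.60 to -1.35). Total counts ranged from 17218884 to 18337471, so that 1 count was worth 0.0547 to 0.0586 CPM. Of all genes, 13984 had a mean of at least 1 CPM over the libraries and are the background for every share below. All 10 markers of lung epithelium and A549 cells were present at 1 CPM or more, in sum at 18443 CPM in the control library, 18993 with DDX24-sh1 and 19098 with DDX24-sh2. Of 10 leukocyte markers, 5 had no count in any library, among them PTPRC, CD3E and the plasmacytoid dendritic cell gene CLEC4C. The 2 that reached 1 CPM were CD14, with 139, 108 and 75 counts in the same order of libraries, and ITGAX, with 40, 73 and 76. The 10 summed to 11.0, 10.2 and 8.48 CPM. Of 8 fibroblast and endothelial markers, 2 reached 1 CPM, and the 8 summed to 11.8, 15.5 and 12.9 CPM. Single markers differed: the keratin gene KRT19 had 1001, 2251 and 2728 counts in the same order, the cadherin gene CDH1 538, 358 and 261, and the fibroblast gene LUM 27, 80 and 68. Counts of mitochondrial genes made up 4.36%, 5.13% and 7.04% of the libraries, and the part of these differences in the values below was not tested.

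The deposited FPKM tables did not carry the same labels as the count tables. A gene's count divided by its FPKM and its length was constant within 1% for 100% of genes with at least 50 counts when the FPKM tables of DDX24-sh1 and DDX24-sh2 were exchanged, and for 5.23% and 5.17% of genes as labelled. Which of the tables is labelled correctly is not known. The values of DDX24-sh1 and DDX24-sh2 given here follow the count tables, and those that do not depend on this are the comparisons stated for both libraries at once.

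The interferon-stimulated genes were on the whole present at low levels in the control cells. The list took 10503 counts in the control library, 12747 with DDX24-sh1 and 12481 with DDX24-sh2, which is 0.0610%, 0.0695% and 0.0699% of each library. Of the 39 members, 29 had a mean of at least 1 CPM and 10 did not. Per kilobase of gene length the control library had its most abundant members at 12.0 CPM for UBE2L6, 11.8 for EIF2AK2 and 10.4 for IFITM2, and the 29 reached down to 0.245 for MX1. Some of the classical markers of an interferon response were close to absent. XAF1, which encodes a pro-apoptotic zinc-finger protein, had 0 counts in all 3 libraries, and the floor of 3 counts allows it up to 0.176 CPM in the control library, 0.164 with DDX24-sh1 and 0.166 with DDX24-sh2.

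Across the members the shift was upward and small. Among the 38 members with at least 1 count the median log2 ratio was 0.22 with DDX24-sh1 and 0.12 with DDX24-sh2. Among the 29 members at 1 CPM or more it was 0.23 and 0.12, beside -0.02 and -0.03 over all 13984 genes at that level. In DDX24-sh1, 22 of the 29 members lay above the control library (75.9%, against 47.4% of all genes at that level), and in DDX24-sh2 17 of 29 did (58.6%, against 47.0%). The members went different ways within the list: 15 lay above the control in both DDX24 libraries (51.7%), where 34.6% of all genes did, 5 lay below it in both (17.2%), against 40.2%, and 9 lay above in 1 and below in the other (31.0%), against 25.3%. With total counts in place of TMM scaling, IFIT2, OAS3 and OASL, all within 0.02 of 0 in DDX24-sh2, turned from below to above the control there.

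**Figure D1:**
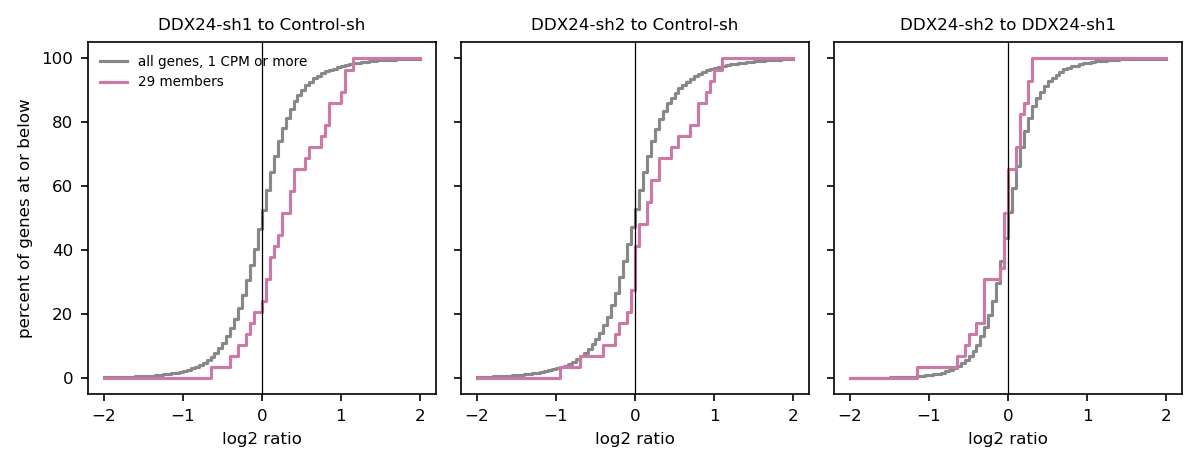
Cumulative distribution of the log2 ratio in each comparison, read in steps of 0.05, for the 29 members at 1 CPM or more and for all 13984 genes at that level (vertical axis: percent of genes at or below the ratio on the horizontal axis). The members' curve lies to the right of that of all genes over most of both comparisons with Control-sh, with medians of 0.23 and 0.12 against -0.02 and -0.03. Between the hairpins it lies to the left, with 65.5% of the members against 51.8% of all genes at or below 0.

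Few members reached 2-fold. In DDX24-sh1, 3 of 29 members were at least 2-fold higher than in the control (IFIT1, IFIT3 and OASL), where 2.32% of all genes were, and 0 of 29 were at least 2-fold lower, where 2.27% were. In DDX24-sh2, 1 of 29 was at least 2-fold higher (SAMD9L), against a background of 2.89%, and 0 of 29 at least 2-fold lower, against 3.07%. None of the 29 was at least 2-fold higher in both, against 1.19% of all genes, and none 2-fold lower in both, against 1.38%. At 1.5-fold, 6 of 29 members were higher in both DDX24 libraries (HERC6, IFIT1, TRIM21, TRIM22, SAMD9 and SAMD9L) where 4.23% of all genes were. IFITM3 was the 1 member of 29 that was at least 1.5-fold lower in both, where 4.72% of all genes were.

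By counting error alone, 13 of 29 members lay above the control in DDX24-sh1 with an interval that left out 0, against 23.6% of all genes, and 5 lay below it, against 29.5%. In DDX24-sh2 these numbers were 12 of 29, against 23.6%, and 4 of 29, against 30.8%. The interval lay above 0 in both DDX24 libraries for 11 members (37.9%), against 14.0% of all genes, which were STAT2, HERC6, IFIT1, IFIT3, IFIT5, TRIM21, TRIM22, PARP9, PARP14, SAMD9 and SAMD9L. It lay below 0 in both for 4 members (13.8%), against 20.6% of all genes, namely OAS1, ISG20, IFITM2 and IFITM3. For 10 members (34.5%) it spanned 0 in both, against 29.6%.

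**Figure D2:**
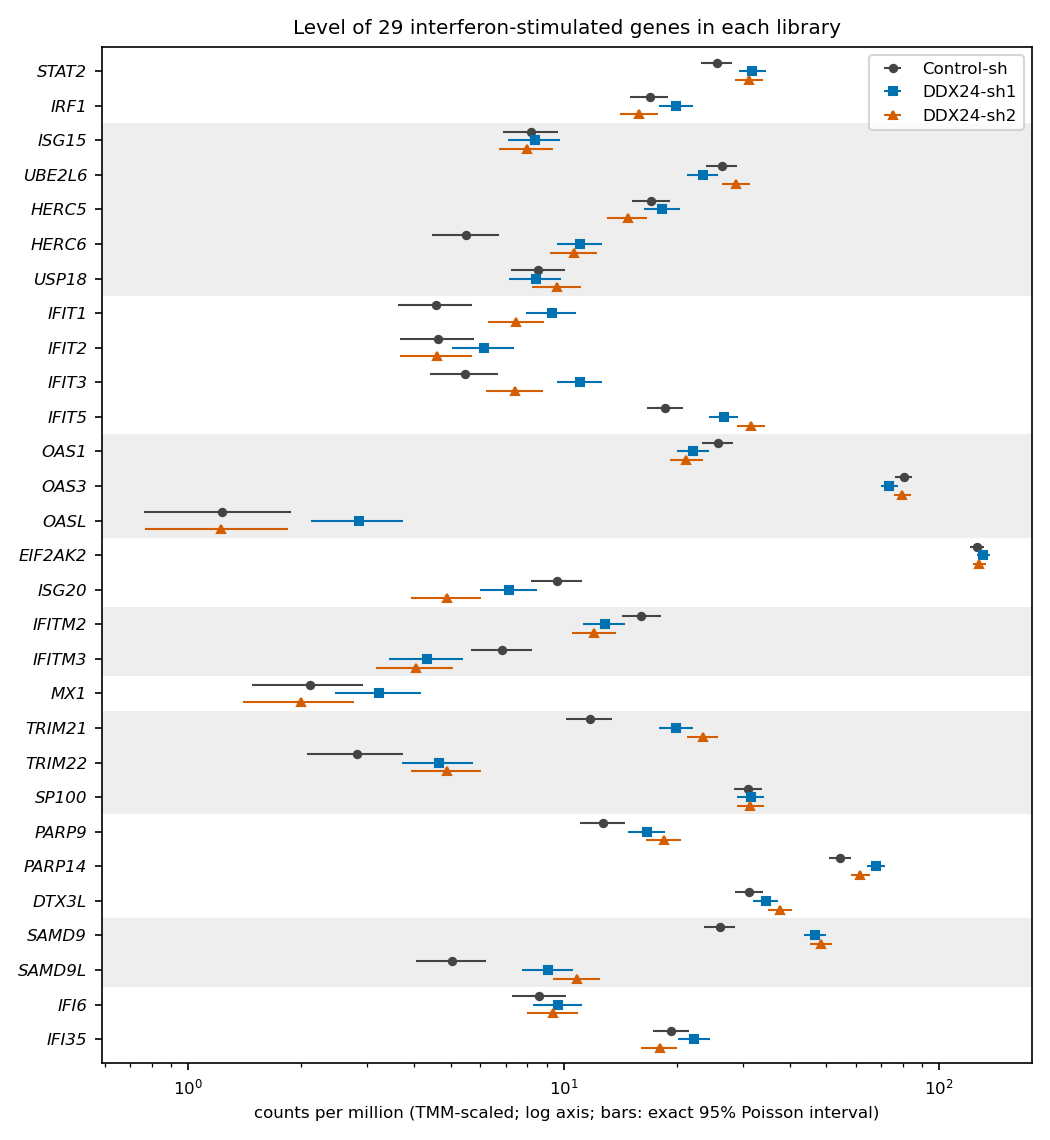
Level of the 29 members at 1 CPM or more in each library, in TMM-scaled CPM on a log axis, with the exact 95% Poisson interval of each count as the bar; grey and white bands part the groups of genes by role. In both DDX24 libraries the bars of SAMD9, SAMD9L, HERC6, TRIM21, IFIT1, IFIT5, PARP9, PARP14 and STAT2 lie wholly right of the control bar. ISG15, USP18, SP100 and EIF2AK2 lie on top of each other. ISG20 and IFITM3 stand to the left, though the bar of ISG20 in DDX24-sh1 overlaps that of the control.

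The signalling proteins on the list showed small differences. STAT2, a subunit of ISGF3, had 437 counts in the control library, 582 with DDX24-sh1 and 563 with DDX24-sh2. Both DDX24 libraries were above the control, at a log2 ratio of 0.31 (0.13 to 0.50) and 0.28 (0.10 to 0.47). IRF1, a transcription factor that binds an element like the ISRE, had 289, 364 and 287 counts. It was above the control in DDX24-sh1 (0.23, 0.01 to 0.46), whereas in DDX24-sh2 the ratio was -0.09 (-0.33 to 0.15). IRF9, the DNA-binding subunit of ISGF3, had 10, 5 and 24 counts, a mean under 1 CPM. It shares 43.8% of its 50-base stretches with other genes, nearly all with AL136295.5, which overlaps it on the same strand and had 15, 11 and 5 counts. Its ratio was -0.86 (-3.00 to 0.58) with DDX24-sh1 and 1.05 (0.06 to 2.41) with DDX24-sh2, and 1.90 (0.86 to 4.03) between the hairpins. How reads of the overlap were assigned is not given in the sources used here. IRF1 shares 22.0% of its stretches, most with C5orf56 on the opposite strand (16, 13 and 20 counts).

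ISG15 and the enzymes that conjugate it did not move as a group. ISG15, a ubiquitin-like protein that is attached to other proteins in an interferon response, had 140 counts in the control library, 153 with DDX24-sh1 and 144 with DDX24-sh2. Its ratios of 0.03 (-0.31 to 0.37) and -0.04 (-0.39 to 0.31) span 0, and the intervals leave out a difference of 1.5-fold in either library. UBE2L6, the conjugating enzyme for ISG15, had 450, 429 and 520 counts, with ratios of -0.17 (-0.36 to 0.03) and 0.13 (-0.06 to 0.31). HERC5, the main ISG15 ligase of human cells, had 292, 335 and 267 counts, with ratios of 0.10 (-0.13 to 0.33) and -0.21 (-0.45 to 0.03). USP18, the protease that removes ISG15 and also restrains the type I interferon receptor, had 146, 154 and 173 counts, and ratios of -0.02 (-0.36 to 0.31) and 0.16 (-0.16 to 0.49). USP18 shares 23.4% of its stretches, nearly all with its copy USP41, and its counts are uncertain to that extent.

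HERC6 stood apart from these. HERC6 (ENSG00000138642, chr4:88378739-88443111, plus strand), a relative of HERC5 that lies beside it, had 94 counts in the control library, 202 with DDX24-sh1 and 192 with DDX24-sh2. Both DDX24 libraries were higher, at a ratio of 0.99 (0.64 to 1.37) and 0.94 (0.59 to 1.32), while its neighbour HERC5 had intervals on both sides of 0.

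IFIT1, IFIT3 and IFIT5 were above the control in both libraries. The IFIT proteins bind viral RNA and hinder its translation, and their genes lie in 1 cluster on chromosome 10 that spans 137 kb (chr10:89283694-89421001). IFIT1 (ENSG00000185745), which recognises RNA caps that lack methylation, had 78 counts in the control library, 170 with DDX24-sh1 and 135 with DDX24-sh2, a ratio of 1.01 (0.63 to 1.43) and 0.70 (0.30 to 1.13). IFIT3 (ENSG00000119917), a partner that stabilises IFIT1 on RNA, had 93, 202 and 134 counts, a ratio of 1.004 (0.66 to 1.39) and 0.44 (0.05 to 0.84). IFIT1 and IFIT3 were thus lowest in the control. Between DDX24-sh2 and DDX24-sh1 the ratio of IFIT3 was -0.57 (-0.90 to -0.25), highest in DDX24-sh1. That of IFIT1 was -0.31 (-0.65 to 0.02), and its interval spans 0.

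IFIT5 differed from IFIT3 in its order, with a ratio of DDX24-sh2 to DDX24-sh1 of 0.24 (0.07 to 0.42). It had 318 counts in the control library, 488 with DDX24-sh1 and 570 with DDX24-sh2, a ratio of 0.52 (0.31 to 0.73) and 0.76 (0.56 to 0.96), highest in DDX24-sh2. IFIT2, which promotes apoptosis and binds AU-rich RNA, had 79, 112 and 83 counts and ratios of 0.40 (-0.02 to 0.84) and -0.01 (-0.47 to 0.45). IFIT2 shares 65 exon bases with LIPA on the opposite strand, a gene with 2337, 3839 and 2931 counts. Whether the libraries keep the strand of reads is not given in the sources used here, and reads from such overlaps cannot then be told apart.

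The OAS genes, which encode sensors of double-stranded RNA that activate the nuclease RNase L, were not higher as a family. OAS1 had 440 counts in the control library, 404 with DDX24-sh1 and 383 with DDX24-sh2, below the control in both at -0.22 (-0.42 to -0.02) and -0.28 (-0.48 to -0.08). OAS3, per kilobase the family's most abundant member in the control cells, had 1373, 1350 and 1442 counts, with ratios of -0.12 (-0.23 to -0.01) and -0.01 (-0.12 to 0.10). OAS2 had 3, 5 and 1 counts. OASL (ENSG00000135114, chr12:121019111-121039242, minus strand), a relative without the enzyme activity that strengthens RIG-I signalling, had 21, 52 and 22 counts. It was 2.20-fold higher in DDX24-sh1, a ratio of 1.14 (0.45 to 2.01), and level with the control in DDX24-sh2, at -0.01 (-0.94 to 0.92).

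Among the other RNA-directed effectors, EIF2AK2 (PKR, the kinase that halts translation on double-stranded RNA) had the highest counts of the list, 2161 in the control library, 2399 with DDX24-sh1 and 2314 with DDX24-sh2. Its ratios of 0.05 (-0.03 to 0.14) and 0.02 (-0.07 to 0.10) are the most closely bounded of the 29 members. ISG20 (ENSG00000172183, chr15:88636153-88656483, plus strand), an RNA exonuclease, had 164, 131 and 88 counts. It was lower in both, at -0.42 (-0.77 to -0.08) and -0.96 (-1.37 to -0.60). RSAD2 (viperin), which makes a chain-terminating nucleotide, had 0, 1 and 0 counts.

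IFITM2 and IFITM3, whose products keep enveloped viruses from fusing with endosomes, were lower in both DDX24 libraries. IFITM3 (ENSG00000142089, chr11:319669-327537, minus strand) had 117 counts in the control library, 79 with DDX24-sh1 and 73 with DDX24-sh2, a ratio of -0.65 (-1.10 to -0.24) and -0.75 (-1.20 to -0.33). IFITM2 had 275, 235 and 218 counts, a ratio of -0.32 (-0.58 to -0.07) and -0.41 (-0.68 to -0.15), and IFITM1 had 0, 2 and 4 counts. The genes share 32.0% (IFITM1), 34.3% (IFITM2) and 35.2% (IFITM3) of their 50-base stretches with other genes, among them each other and, for IFITM3, also AC136475.5 on the opposite strand, and single values are uncertain. Their summed counts, which do not depend on how reads were split among them, were 392, 316 and 295, a ratio of -0.41 (-0.63 to -0.19) and -0.49 (-0.71 to -0.27).

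MX1, a dynamin-like GTPase that blocks viral nucleocapsids, had 36 counts in the control library, 59 with DDX24-sh1 and 36 with DDX24-sh2. Both intervals span 0, at 0.59 (-0.01 to 1.25) and -0.08 (-0.79 to 0.63). MX2, its relative that acts on HIV, had 1 count in each library, and BST2 (tetherin), which holds budding virus at the cell surface, had 2, 2 and 1.

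Among the genes of TRIM proteins and nuclear bodies, both TRIM genes were higher. TRIM21 (ENSG00000132109, chr11:4384897-4393696, minus strand), a cytosolic antibody receptor and ubiquitin ligase, had 200 counts in the control library, 365 with DDX24-sh1 and 424 with DDX24-sh2, a ratio of 0.76 (0.52 to 1.02) and 0.996 (0.76 to 1.25). TRIM22 (ENSG00000132274, chr11:5689689-5737089, plus strand), a ubiquitin ligase that restricts viral transcription, had 48, 85 and 88 counts, a ratio of 0.70 (0.20 to 1.27) and 0.77 (0.27 to 1.33). SP100, a component of PML nuclear bodies, had 528, 577 and 567 counts, and its ratios of 0.03 (-0.14 to 0.20) and 0.02 (-0.15 to 0.20) span 0.

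PARP9, DTX3L and PARP14 lie together on chromosome 3 and encode an ADP-ribosylation complex and a related enzyme that act on interferon signalling. PARP9 had 217 counts in the control library, 305 with DDX24-sh1 and 334 with DDX24-sh2, at 0.39 (0.14 to 0.65) and 0.54 (0.29 to 0.79). PARP14 had 930, 1243 and 1114 counts, at 0.32 (0.19 to 0.44) and 0.18 (0.05 to 0.31). DTX3L, the ubiquitin ligase partner of PARP9, had 532, 632 and 681 counts, at 0.15 (-0.02 to 0.32) and 0.27 (0.11 to 0.44). The 3 genes were above the control in both libraries, and DTX3L in DDX24-sh1 was the 1 of their 6 ratios whose interval reached 0. PARP9 and DTX3L share 217 exon bases on opposite strands, 2.43% of the exon bases of PARP9.

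SAMD9 and its neighbour SAMD9L, cytoplasmic proteins that restrict poxviruses and slow translation, were both higher in both DDX24 libraries. SAMD9 (ENSG00000205413, chr7:93099513-93118023, minus strand) had 445 counts in the control library, 853 with DDX24-sh1 and 875 with DDX24-sh2, a ratio of 0.84 (0.67 to 1.01) and 0.89 (0.73 to 1.06). SAMD9L (ENSG00000177409, chr7:93130055-93148369, minus strand) had 86, 166 and 196 counts, a ratio of 0.83 (0.46 to 1.24) and 1.09 (0.73 to 1.49). Neither gene shares a 50-base stretch with another gene. The RefSeq promoter of SAMD9 holds 1 ISRE core and that of SAMD9L 0.

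The IFI genes and XAF1 include the usual reporters of an interferon response. IFI6, a mitochondrial and endoplasmic reticulum protein, had 147 counts in the control library, 177 with DDX24-sh1 and 169 with DDX24-sh2, at 0.17 (-0.16 to 0.49) and 0.12 (-0.21 to 0.45). IFI35 had 330, 408 and 325 counts, at 0.21 (-0.01 to 0.42) and -0.10 (-0.33 to 0.12). All 4 of these intervals span 0. IFI27 had 13, 8 and 17 counts, IFI44 had 8, 10 and 12, and IFI44L had 0, 2 and 4. IFI27 begins 23590 bases upstream of the start of DDX24 on chromosome 14, on the opposite strand, and at these counts no difference of IFI27 was detectable.

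**Figure D3:**
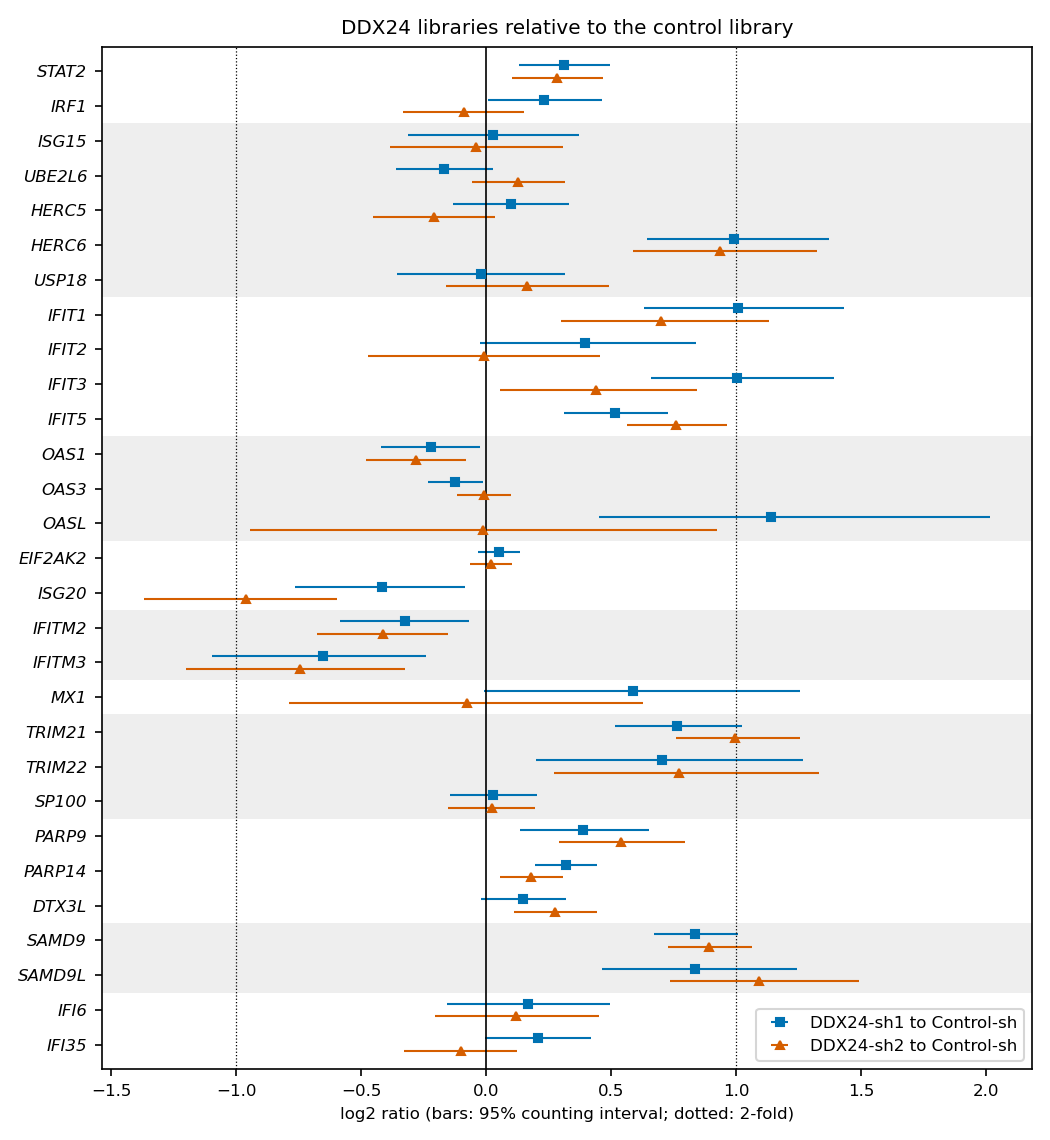
Log2 ratio of each DDX24 library to the control library for the 29 members at 1 CPM or more, grouped by role in bands; bars are 95% counting intervals and dotted lines mark 2-fold. HERC6, IFIT1, TRIM21, TRIM22, SAMD9 and SAMD9L lie to the right in both, IFITM2, IFITM3, ISG20 and OAS1 to the left in both, and OASL, IFIT3 and MX1 differ between the libraries.

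Genes that are neighbours in the genome did not always share a direction. Of the 39 members, 21 lie in 8 clusters in which neighbours are no more than 500 kb apart. The SAMD9 pair and the PARP9, DTX3L and PARP14 cluster lay above the control throughout, and IFITM2 and IFITM3 lay below it throughout. OAS1 and OAS3 lay below it too, though OAS3 in DDX24-sh2 was above it with total counts as the scaling. HERC6 lay above the control and HERC5 on either side of it, and in the IFIT cluster every ratio was above 0 but that of IFIT2 in DDX24-sh2, which was -0.01 and turned to 0.02 with total counts.

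Members with and without an ISRE core overlapped in their ratios. Of the members at 1 CPM or more with a RefSeq promoter, 13 held the core and 11 did not. The median ratio in DDX24-sh1 was 0.32 with the core and 0.21 without, and in DDX24-sh2 it was 0.12 and 0.13. The 13 with the core ranged from -0.65 (IFITM3) to 1.01 (IFIT1) in DDX24-sh1 and from -0.96 (ISG20) to 0.89 (SAMD9) in DDX24-sh2, and the 11 without it from -0.22 (OAS1) to 0.99 (HERC6) and from -0.28 (OAS1) to 1.09 (SAMD9L). HERC6, TRIM21 and SAMD9L have no core in this window.

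The hairpins were then compared with each other. Between DDX24-sh2 and DDX24-sh1 the median over the 29 members was -0.05, beside -0.01 over all genes at 1 CPM or more, and 10 of 29 members lay above 0 (34.5%), against 48.2% of all genes. None of the 29 was at least 2-fold higher in DDX24-sh2, where 1.30% of all genes were, and OASL was the 1 member at least 2-fold lower, where 1.01% were. Its ratio of DDX24-sh2 to DDX24-sh1 was -1.15 (-2.01 to -0.48). The counting interval lay above 0 for 4 of 29 members (UBE2L6, IFIT5, OAS3 and TRIM21), against 21.0% of all genes, and below 0 for 8 (IRF1, HERC5, IFIT3, OASL, ISG20, MX1, PARP14 and IFI35), against 23.8%. Apart from OASL the largest differences were lower values in DDX24-sh2 for MX1 at -0.66 (-1.33 to -0.07), IFIT3 at -0.57 (-0.90 to -0.25) and ISG20 at -0.54 (-0.96 to -0.15). HERC6 at -0.05 (-0.35 to 0.24), SAMD9 at 0.06 (-0.08 to 0.19) and TRIM22 at 0.07 (-0.38 to 0.52) differed between the hairpins by less than their counting error. Because of the exchanged labels noted above, which hairpin is the higher one in this paragraph depends on the count tables being labelled correctly.

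**Figure D4:**
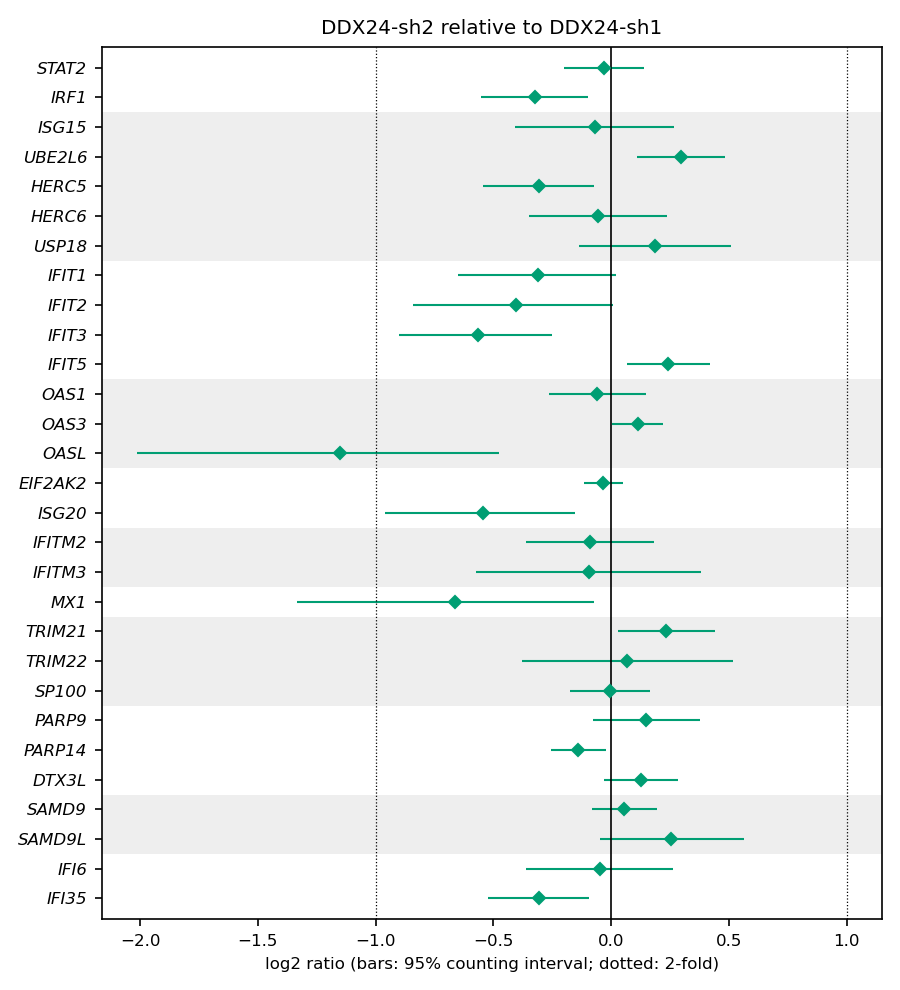
DDX24-sh2 over DDX24-sh1 as a log2 ratio for the 29 members at 1 CPM or more, with 95% counting intervals and dotted lines at 2-fold. OASL at -1.15 is the only point of the 29 beyond a dotted line, and the intervals of HERC6, SAMD9, SAMD9L and TRIM22 span 0.

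The pathway upstream of these genes was present, while its ligands were nearly absent. Of 22 interferon genes, 19 had no count in any library, among them IFNB1, IFNG and the type III genes IFNL1 to IFNL4. IFNA1 had 2, 0 and 6 counts and IFNA13 had 0, 1 and 0. IFNE, an epithelial type I interferon, was the only ligand with a mean of at least 1 CPM. It had 8 counts in the control library, 15 with DDX24-sh1 and 42 with DDX24-sh2. In CPM these are 0.469, 0.820 and 2.33, so that it reached that mean only through DDX24-sh2, where it was highest. Its ratios were 0.68 (-0.52 to 2.25) and 2.07 (1.20 to 3.61). In DDX24-sh2, 2.89% of all genes were at least 2-fold higher than in the control. Which hairpin holds the higher IFNE value depends on the count tables being labelled correctly.

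The 5 receptor genes at 1 CPM or more had ratios below 0 in both DDX24 libraries, where 40.2% of all genes did. The interval lay below 0 in both for IFNGR1 alone, where it did for 20.6% of all genes. For IFNGR1, the ligand-binding chain for interferon gamma, the interval left out 0 in both, with 891, 660 and 682 counts and ratios of -0.53 (-0.68 to -0.39) and -0.47 (-0.61 to -0.32). IFNGR2 had 517, 499 and 386 counts, at -0.15 (-0.33 to 0.03) and -0.50 (-0.70 to -0.31). The type I receptor chain IFNAR1 had 1017, 1089 and 945 counts, at -0.0012 (-0.13 to 0.12) and -0.19 (-0.32 to -0.06). IFNAR2 had 26, 18 and 25 counts, at -0.58 (-1.58 to 0.29) and -0.13 (-0.99 to 0.71). IFNLR1 had 110, 108 and 109, at -0.12 (-0.52 to 0.27) and -0.09 (-0.49 to 0.30). The intervals of IFNAR2 and IFNLR1 span 0 in both libraries. Those of IFNGR2 and IFNAR1 span 0 in DDX24-sh1 and lie below 0 in DDX24-sh2, where those of 30.8% of all genes do. No receptor differed by 2-fold.

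Of the kinases and other STATs described here, JAK1 alone had intervals below 0 in both libraries, where 20.6% of all genes did. It had 7997, 6818 and 6271 counts, at -0.33 (-0.38 to -0.28) and -0.43 (-0.48 to -0.38). JAK2 had 218, 191 and 217 counts, at -0.29 (-0.58 to -0.0037) and -0.09 (-0.37 to 0.19). TYK2 had 1032, 1171 and 1052, at 0.08 (-0.04 to 0.20) and -0.05 (-0.18 to 0.07). STAT3 had 7117, 8892 and 7127 counts, at 0.22 (0.18 to 0.27) and -0.08 (-0.13 to -0.03).

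Among inhibitors of this signalling, SOCS3, which blocks JAK activity, had 1131, 921 and 812 counts, at -0.40 (-0.52 to -0.27) and -0.56 (-0.69 to -0.43). PTPN2, a phosphatase that acts on JAK1, had 443, 291 and 337 counts, at -0.70 (-0.92 to -0.49) and -0.47 (-0.68 to -0.27). Both genes had intervals below 0 in both libraries, where 20.6% of all genes did. PTPN1, a phosphatase that acts on JAK2 and TYK2, went the other way, with 1185, 1809 and 1585 counts. Its ratios were 0.51 (0.40 to 0.62) and 0.34 (0.23 to 0.45), and 14.0% of all genes had intervals above 0 in both. PIAS1 had 751, 867 and 867 counts, at 0.11 (-0.04 to 0.25) and 0.13 (-0.02 to 0.27). Of the 7 other interferon regulatory factors, IRF2, IRF3, IRF5 and IRF7 reached 1 CPM. None of these had intervals above 0 in both libraries, where 14.0% of all genes did, or below 0 in both, where 20.6% did. In a single library the interval left out 0 for IRF5, at 0.38 (0.14 to 0.63) in DDX24-sh1. It also did for IRF3, at -0.18 (-0.29 to -0.08) in DDX24-sh2.

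**Figure D5:**
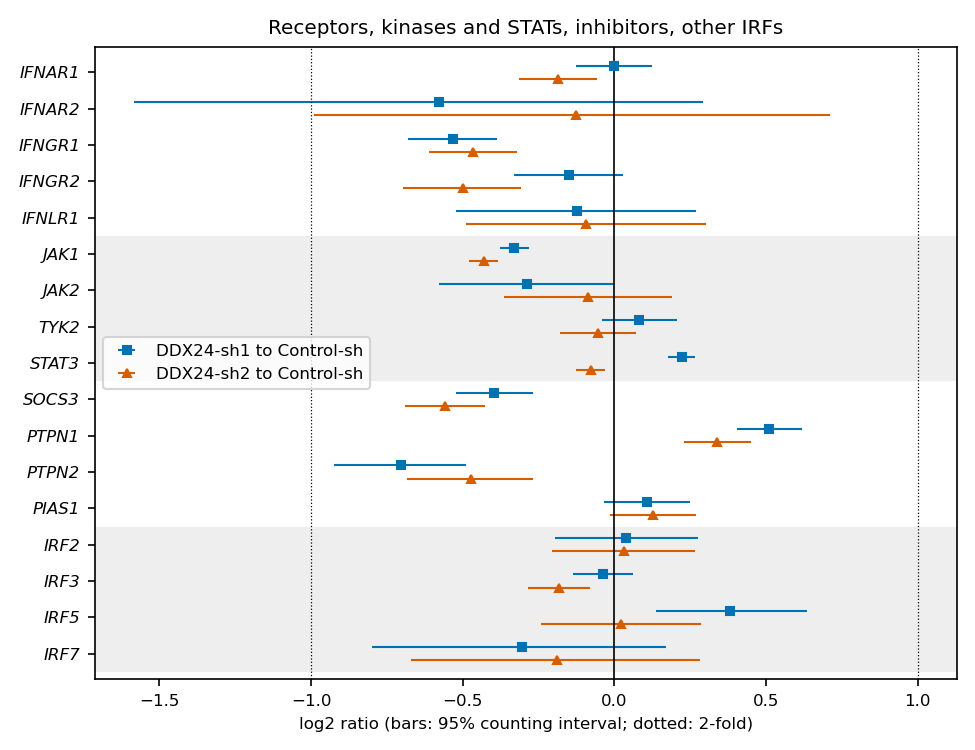
Log2 ratio of each DDX24 library to the control library for genes at 1 CPM or more among receptors, kinases and STATs, inhibitors and other interferon regulatory factors, in bands in that order; bars are 95% counting intervals and dotted lines mark 2-fold. IFNGR1, JAK1, SOCS3 and PTPN2 lie to the left in both libraries and PTPN1 to the right, and no gene shown reaches 2-fold.

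Interferon-responsive genes outside the 39 were read from a second list of 52. Of these, 38 had at least 1 CPM, with median ratios of 0.24 with DDX24-sh1 and 0.22 with DDX24-sh2. The interval lay above 0 in both for 16 and below 0 in both for 2 (LY6E and TRIM25), where 14.0% and 20.6% of all genes did. None was at least 2-fold higher in both, against 1.19% of all genes. The 3 of 38 that were at least 1.5-fold higher in both, against 4.23% of all genes and named after their values were seen, were the guanylate-binding protein genes GBP1 (20, 42 and 68 counts), GBP2 (64, 157 and 110) and GBP3 (89, 158 and 151). The chemokine genes CXCL9 and CXCL10, strongly induced by interferon gamma, had 0 counts in all libraries.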

How the data were processed

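Counts per gene (whole numbers, not normalized) and FPKM values per gene were deposited by the authors for 3 libraries. Per the labels, total RNA was extracted with TRIzol and libraries were made by Illumina protocols. The submitters' processing notes name Bowtie2 2.0.6, TopHat2 2.0.9, Cufflinks 2.1.1 and Cuffdiff 2.1.1 with no role. The counter, the genome build and the handling of strand and overlapping genes are not given in the sources used here. All 58735 genes match GENCODE 29 (GRCh38) in identifier, start and end.

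Samples were grouped by their titles. Library scaling and log2 CPM came from edgeR 4.0.16 under R 4.3.3 (TMM, prior count 2), without a count model, since each group has 1 library. Intervals are exact 95% Clopper-Pearson (conditional binomial), computed with Python 3.11.15 and scipy 1.17.1. The steps were tested on simulated data. Size rules were 2-fold and 1.5-fold at a mean of at least 1 CPM. The floor of a 0 is 3 counts. Depth was 17218884 to 18337471 counts per library. The alternatives were DESeq2 1.42.0 size factors, total counts, a prior count of 0.5, other filters and the FPKM values as log2(FPKM + 0.1).

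Every member is named. Genes of the signalling lists are named at 1 CPM or more, except for a withheld item that is not reported here, and those of the other lists when past 2-fold in both DDX24 libraries, with IFNE, IFNA1, IFNA13, LY6E, TRIM25, GBP1, GBP2, GBP3, CXCL9, CXCL10 and markers at 0 named in addition after their values were seen. The markers KRT19 and LUM were past 2-fold in both, and CDH1, CD14 and ITGAX were added after their values were seen. The members and lists were chosen with earlier results of these data known. Protein sequences were not used here.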

Additional observations from a re-analysis of the deposited data

Results flagged for a closer look

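STAT3, a signalling gene outside the list, had counting intervals beyond 0 in opposite directions in the DDX24 libraries, above the control in DDX24-sh1 (0.22) and below it in DDX24-sh2 (-0.08), and the ratio of DDX24-sh2 to DDX24-sh1 was -0.30 (-0.35 to -0.25). With 1 library per condition the difference was not tested beyond counting error. The value of -0.08 lies near the scaling: in DDX24-sh2 the median over all genes was -0.03 with TMM and 0.003 with total counts. None of the 29 members at 1 CPM or more showed such opposite intervals. The share of all genes with them was not counted, so that nothing about the members follows from this.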

How the results depend on the processing

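With 1 library per condition there was no replicate to leave out, and the limit of every value is that cultures were not replicated. No paired analysis was possible because each group has 1 library and the result comes from no test. Over all alternatives run, the median over the members lay between 0.13 and 0.32 for DDX24-sh1 and between 0.075 and 0.17 for DDX24-sh2. Between the hairpins it was -0.04 and turned to 0.04 with FPKM as labelled. Chosen after seeing the data were the floor of 3 counts for members at 0, the removal of members that share over 20% of their sequence, and other scalings for the counts of intervals; under the other scalings each count of intervals stayed within 1.5 times the reported one.

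Counts of members past 2-fold rest on values close to 2-fold. In DDX24-sh1, 3 members were at least 2-fold higher, but 4 (HERC6 in addition) with DESeq2 size factors or a prior count of 0.5, 1 (OASL) in the FPKM values with exchanged labels, 2 others (TRIM21 and SAMD9L) in FPKM as labelled, 0 at a mean of at least 10 CPM and 9 at 1.5-fold, where 1 was lower instead of 0. In DDX24-sh2, the 1 member became 2 (TRIM21 and SAMD9L) with DESeq2 size factors, total counts, a prior count of 0.5 or FPKM with exchanged labels, OASL in place of SAMD9L with FPKM as labelled, 4 without a filter, 0 at 10 CPM and 7 at 1.5-fold, where 2 were lower instead of 0. In both libraries, 6 were higher and 1 lower at 1.5-fold instead of 0. Between the hairpins, 0 higher and 1 lower became 1 and 0 with FPKM as labelled, 1 and 2 without a filter, and the 1 lower became 0 at 10 CPM and 2 at 1.5-fold.

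The FPKM values as labelled exchange the hairpins by construction. DDX24 itself then had -1.45 with DDX24-sh1 and -1.72 with DDX24-sh2, and -0.27 between them. Between the hairpins the sign then turned for all 38 members with a count. Among them were those whose counting interval had left out 0, IRF9 (-1.39), IRF1 (0.31), UBE2L6 (-0.29), HERC5 (0.30), IFIT3 (0.56), IFIT5 (-0.24), OAS3 (-0.11), OASL (1.03), ISG20 (0.50), MX1 (0.52), TRIM21 (-0.23), PARP14 (0.14) and IFI35 (0.31). To the control it turned for 12 of 38 members in each DDX24 library, among them, with an interval that had left out 0, IRF9 in DDX24-sh2 (-0.56), IRF1 in DDX24-sh1 (-0.078) and OASL in DDX24-sh1 (-0.0035). With the FPKM labels exchanged no member turned. With total counts 3 of 38 turned in DDX24-sh2 to the control (IFIT2, OAS3 and OASL) and 1 between the hairpins (SP100).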
